A study of Mus musculus with 14 samples.

Results

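Visceral fat of male mice (the epididymal pad) was read on arrays, and for each gene the question was whether Western diet changed its level by a different amount in mice of the Apolipoprotein E genotype than in wild-type (WT) mice. The quantity tested was the interaction, the diet difference in EKO (the labels' short name for that genotype) minus the diet difference in WT, on the log2 scale. All 14 Affymetrix arrays and all 19937 genes with 1 symbol in the platform annotation entered, each gene by its probe set with the highest mean. The 4 groups compared were, all on C57BL6/J: normal-fed WT (3 arrays), Western-fed WT (3), normal-fed EKO (4) and Western-fed EKO (4). The mice started their diet at 8 weeks of age and ate it for 24 weeks, and the Western diet held 42% anhydrous milk fat. The labels call the arrays of a group biological replicates. They do not name the Apoe allele, and whether an array holds 1 animal or a pool is not given in the sources used here.

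Expanding visceral fat collects macrophages, which gather around dying adipocytes, take up their lipid into lysosomes, carry the integrin CD11c and can divide in place. Apolipoprotein E is the ligand by which lipoprotein remnants enter cells through receptors of the LDL receptor family, and it is made by both adipocytes and macrophages. Mice without it are best known for high plasma cholesterol, and adipocytes use it in lipid uptake from very low density lipoproteins.

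The genotype labels of all 14 arrays matched the Apoe level. Apoe lay between 13.13 and 13.65 in the WT arrays and between 9.46 and 10.26 in the EKO arrays. Its interaction was 0.31 ± 0.22, adjusted p = 0.685. Adipoq, the adipokine that marks fat cells, lay between 12.84 and 13.55 on every array. The epididymal genes Lcn8 and Adam7 and the testis gene Tnp1 had group means between 5.995 and 6.81. The mean of 1208 olfactory and vomeronasal receptor rows, taken as array background, set 5 arrays (6.75 to 6.84) apart from 9 (6.29 to 6.56), and each group holds arrays of both sets. A group mean at or below 6.84, the highest of these, is treated as background. Levels below are log2 units, estimates carry ± SE, group levels ± SD, and adjusted p values are limma's, over all 19937 genes and two-sided.

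The diet effect depended on genotype for 96 genes, 0.482% of those tested. For 67 of them (0.336% of all genes) the effect was lower in EKO, and for 29 (0.145%) it was higher. The 67 rose in WT on Western diet (median 1.33) and stood at a median of 0.01 in EKO, where their diet estimates ran from -0.50 to 0.51. The 29 had a median of -1.10 in WT and 0.01 in EKO. Over all genes the median interaction was 0.03, and 42.9% lay below 0.

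The pattern was a departure of 1 group from the other 3. In all 67 genes with a lower effect the 3 WT arrays on Western diet lay above all 11 others, against 802 of all 19937 genes (4.02%). Among the 29 with a higher effect they lay below all 11 others in 27, against 681 of all genes (3.42%). Both EKO means were nearer to WT on normal diet than to WT on Western diet in 95 of the 96, Smyd1 being the exception. The diet estimate of EKO reached 0.5 times that of WT, in the same direction, in 0 of the 96. These positions follow in part from the selection on the interaction, which uses the same arrays.

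Within the genotypes, 636 genes rose (3.19%) and 458 fell (2.3%) with diet in WT, and 0 genes (0%) passed in EKO. In EKO limma gave 883 genes at an unadjusted p under 0.05 and a smallest adjusted p of 0.112. The WT and EKO estimates share their arrays with the interaction and are given beside it as its parts. In the interaction itself 2162 genes had an unadjusted p under 0.05, where 997 would come from uniform p values, and the smallest adjusted p was 4.53e-05. Sizes among the 96 ran from 0.53 to 3.20.

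Single arrays moved the count of 96. It was 37 without the second WT array on normal diet, 45 without the third, 40 and 38 without the second and the third WT array on Western diet, and 499 without the first. Among EKO it was 57 and 148 without the first and the second array on normal diet, and 62, 61 and 43 without the first, the second and the fourth on Western diet. All 96 kept their direction in every one of these fits, and 32 passed in all 14. The 96 were chosen on the same arrays, so a kept direction follows in part from that choice.

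**Figure D1:**
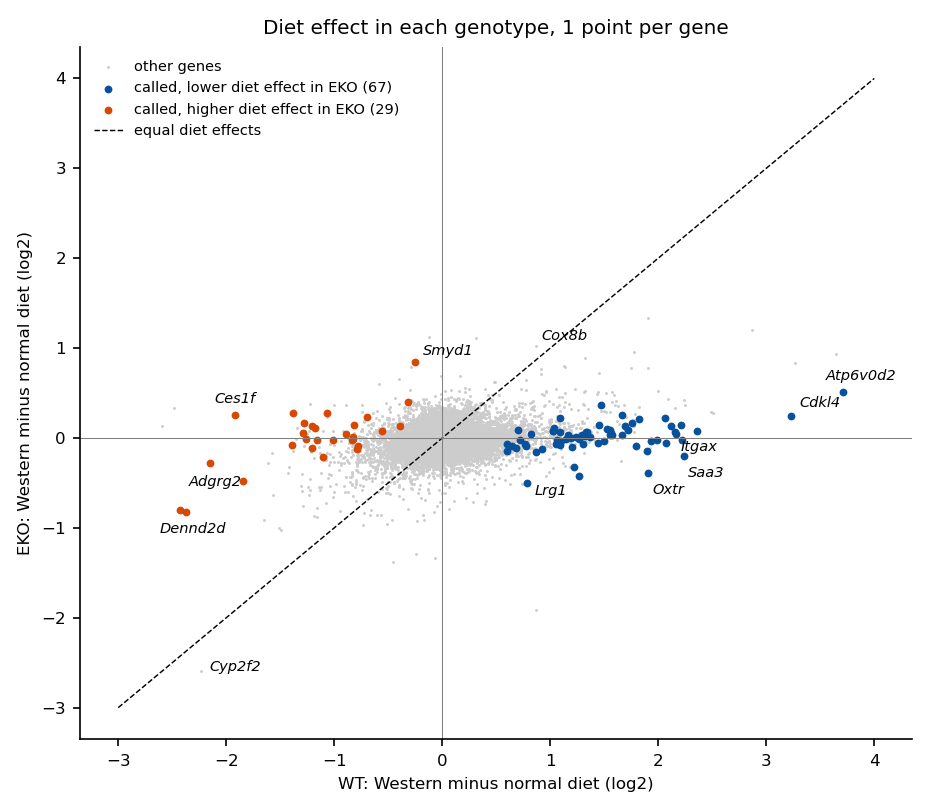
Diet effect in EKO (vertical axis, log2) against diet effect in WT (horizontal axis, log2) for the genes tested, with the 67 genes of lower and the 29 of higher interaction coloured. The coloured genes spread along the horizontal axis while their EKO estimates stay between -0.83 and 0.85; both axes share arrays with the test that chose the colours.

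Genes of macrophages and other leukocytes were among the 67 with a lower diet effect in EKO. Itgax encodes CD11c, the integrin of fat-infiltrating macrophages. Itgax read 8.05, 7.72 and 7.95 in normal-fed WT, 9.89, 10.05 and 10.23 in Western-fed WT, 7.66, 7.97, 7.79 and 8.46 in normal-fed EKO and 8.09, 8.01, 8.12 and 7.91 in Western-fed EKO. All WT arrays on Western diet exceeded the highest of the others, 8.46, found in EKO on normal diet. The interaction was -2.09 ± 0.22, adjusted p = 0.000604, the WT rise was 4.44-fold, and the gene passed in all 14 fits that left out 1 array. In bulk tissue, fewer cells of a type and less RNA per cell cannot be told apart.

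Il7r, the alpha chain of the interleukin 7 receptor, read 7.49, 7.29 and 7.38 in normal-fed WT, 9.85, 9.21 and 9.76 in Western-fed WT, 7.30, 6.96, 7.50 and 7.85 in normal-fed EKO and 7.68, 7.42, 7.08 and 7.34 in Western-fed EKO. The lowest WT array on Western diet (9.21) stood above the highest of the other 11 (7.85), and the interaction was -2.25 ± 0.28, adjusted p = 0.00237. Rgs1, which shortens G protein signals of chemokine receptors, read 6.54, 6.26 and 6.58 in normal-fed WT, 8.33, 7.89 and 8.23 in Western-fed WT, 6.48, 6.49, 6.16 and 6.62 in normal-fed EKO and 6.90, 6.62, 6.33 and 6.45 in Western-fed EKO. Rgs1 was at background in the other 3 groups, so its WT rise was at least 2.94-fold and WT exceeded EKO on Western diet at least 2.7-fold (bright mean against, per array, the higher of the background and the gene's own value). Its interaction was -1.56 ± 0.21, adjusted p = 0.00426. Mrc2, the endocytic collagen receptor of macrophages and fibroblasts, read 8.92, 8.62 and 8.86 in normal-fed WT, 10.57, 10.74 and 10.78 in Western-fed WT, 8.83, 8.59, 8.79 and 9.14 in normal-fed EKO and 8.70, 8.64, 8.72 and 8.73 in Western-fed EKO. Mrc2 rose 3.71-fold in WT, its EKO estimate was -0.14, and its interaction of -2.03 ± 0.16 had an adjusted p of 4.53e-05, with Tfr2 the smallest of all genes.

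Tm4sf19, a tetraspan membrane protein, read 8.20, 7.79 and 8.17 in normal-fed WT, 10.14, 10.05 and 10.60 in Western-fed WT, 8.09, 8.19, 7.83 and 8.49 in normal-fed EKO and 8.78, 8.25, 8.21 and 7.92 in Western-fed EKO. Its interaction was -2.07 ± 0.28, adjusted p = 0.00426, and the WT arrays on Western diet began at 10.05, above 8.78 elsewhere. Glipr1, a secreted protein of the CAP superfamily, read 7.86, 7.93 and 8.12 in normal-fed WT, 9.39, 9.70 and 10.20 in Western-fed WT, 8.06, 7.92, 8.12 and 8.51 in normal-fed EKO and 7.86, 8.29, 8.15 and 7.94 in Western-fed EKO. Glipr1 rose 3.47-fold in WT and gave an interaction of -1.89 ± 0.25, adjusted p = 0.00372. In both genes the EKO groups overlapped each other.

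Other immune genes with a lower diet effect in EKO, grouped by known role after their values were seen, were surface receptors and adhesion molecules and the signalling proteins behind them. Tlr13, the endosomal sensor of bacterial ribosomal RNA, stood at 8.11 ± 0.37 and 10.18 ± 0.48 in WT on normal and Western diet (SD, n = 3 each). In EKO it stood at 8.55 ± 0.36 and 8.49 ± 0.35 (SD, n = 4 each), for an interaction of -2.13 ± 0.35, adjusted p = 0.0157. Adam8, a membrane metalloprotease of leukocytes, had an interaction of -1.63 ± 0.24, adjusted p = 0.00715, and Slamf7, a self-binding receptor of the SLAM family, had -1.51 ± 0.23, adjusted p = 0.00991. The receptors Clec4a2, Cd180, Itgb2 (the beta 2 integrin chain that pairs with CD11c), Ms4a6c and Havcr2 (TIM-3) lay at -1.63 to -0.61. The adaptors and regulators of antigen receptor signalling Lat2, Blnk, Stap1, Ptpn22 and Map4k1 lay at -2.13 to -0.86. Aim2 (the sensor of cytosolic DNA), Tnip3, Ubd (the ubiquitin-like FAT10), Arhgap25, Bin2 and P2ry10b lay at -2.02 to -0.77. Among these, P2ry10b, Ubd, Stap1 and Bin2 were at background in 1 or more groups, and the WT rise of P2ry10b was at least 2.62-fold, that of Ubd at least 3.06-fold, that of Stap1 at least 4.19-fold and that of Bin2 at least 2.13-fold. Clec4a2 and Ms4a6c belong to families of close copies, whose probes may read more than 1 gene.

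Of 26 measured pan-macrophage genes, 2 passed the interaction test (Itgax and Slamf7), 25 had an estimate below 0 and 22 were lower at an unadjusted p under 0.05, against 6.57% of all genes. The count of 2 became 9 without the second EKO array on normal diet (148 of all genes) and 4 without the fourth (73 of all genes). It was 7 without the first WT array on Western diet (499 of all genes). The median interaction of the list was -0.98, with a median diet effect of 1.12 in WT and 0.07 in EKO. The mean level of the list ran 9.02 to 9.23 in normal-fed and 9.93 to 10.40 in Western-fed WT, and 8.81 to 9.68 and 9.07 to 9.5 in EKO. The EKO array on normal diet numbered 4 gave the upper end of its group. The macrophage markers Adgre1 (-1.03 ± 0.35, adjusted p = 0.239) and Cd68 (-1.06 ± 0.34, adjusted p = 0.218) did not pass. The share of the 67 genes' pattern that moves with macrophage content was not tested.

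Among 15 resident macrophage genes 0 passed and the median was 0.01. Among 8 MHC class II genes 0 passed, while all 8 lay below 0, against 42.9% of all genes. Of the 8, 7 were lower at an unadjusted p under 0.05, against 6.57% of all genes. Their median was -0.68, and Cd74, the invariant chain, had -0.84 ± 0.25, adjusted p = 0.176. Among 31 chemokine, cytokine and receptor genes Il7r alone passed and the median was -0.29. No member passed among 20 T and NK cell genes (median -0.07), 8 B cell genes (median 0.0038), 12 neutrophil genes (median 0.21) or 14 interferon-induced genes (median -0.14). The 11 mast cell genes all lay above 0, with 0 passing and a median of 0.23, where 42.9% of all genes lay below 0. Only 1 was higher at an unadjusted p under 0.05. Their mean level was 8.09 for normal-fed WT and 7.81 for Western-fed WT, against 7.785 for normal-fed EKO and 7.775 for Western-fed EKO. The group that stood apart in this list was thus normal-fed WT and not Western-fed WT. EKO minus WT already had a median of -0.25 among normal-fed mice.

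Genes of lysosomes and of proton pumping were also among the 67. Atp6v0d2, a subunit of the vacuolar proton pump that osteoclasts and fused macrophages use, read 8.07, 7.42 and 8.20 in normal-fed WT, 11.40, 11.54 and 11.87 in Western-fed WT, 7.10, 7.08, 7.30 and 9.02 in normal-fed EKO and 8.99, 8.35, 7.74 and 7.46 in Western-fed EKO. The interaction was -3.20 ± 0.61, adjusted p = 0.0353. It passed in 7 of the 14 fits that left out 1 array, and the fourth EKO array on normal diet stood apart from its group. Ctsk, a collagen-cleaving lysosomal protease, had an interaction of -1.54 ± 0.25, adjusted p = 0.0146. Lipa, the lysosomal acid lipase that frees cholesterol and fatty acids from lipoprotein lipids, had -0.87 ± 0.18, adjusted p = 0.0455. Gla (alpha-galactosidase A), Cstb (an inhibitor of cathepsins), Slc37a2, Slc15a3 (a lysosomal peptide transporter) and Ifi30 (the lysosomal thiol reductase of antigen processing) lay at -1.59 to -0.83.

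Of 21 lipid-associated macrophage and fusion genes 4 passed (Itgax, Ctsk, Atp6v0d2 and Lipa), and the list median was -0.60, from 0.75 in WT and 0.16 in EKO. The count was 1 without the second WT array on normal diet (37 of all genes) and 7 without the first WT array on Western diet (499 of all genes). It was 2 without the third WT array on normal diet, the second or the third WT array on Western diet, or the second, the third or the fourth EKO array on Western diet. In those fits 38 to 83 of all genes passed. Lipa passed in 4 of the 14 fits that left out 1 array. All 17 vacuolar proton pump genes and all 21 lysosomal genes lay below 0, against 42.9% of all genes. Of them 7 and 8 were lower at an unadjusted p under 0.05, against 6.57% of all genes. In these lists 1 (Atp6v0d2) and 0 passed, and the medians were -0.33 and -0.32. Ctss, a cathepsin of antigen-presenting cells (-1.51 ± 0.34, adjusted p = 0.0633), and Grn, progranulin (-0.52 ± 0.13, adjusted p = 0.0957), had the smallest p among the lysosomal genes. In cholesterol efflux and storage 1 of 15 (Lipa) passed, median -0.30.

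The cholesterol synthesis and uptake list, the targets of the sterol-regulated transcription factor SREBP2, had 0 of 20 members past the threshold. In it 18 lay below 0 and 12 were lower at an unadjusted p under 0.05, against 6.57% of all genes. The median of the list was -0.71, from 0.73 in WT and -0.04 in EKO. Dhcr7, the last enzyme of cholesterol synthesis, read 9.09, 8.83 and 9.03 in normal-fed WT, 9.71, 10.60 and 10.94 in Western-fed WT, 9.16, 8.76, 8.84 and 9.09 in normal-fed EKO and 8.57, 9.10, 9.03 and 8.99 in Western-fed EKO. All WT arrays on Western diet lay above the other 11, and the interaction was -1.47 ± 0.32, adjusted p = 0.0532. Hsd17b7, which acts earlier in the same pathway, had -1.40 ± 0.31, adjusted p = 0.0684. With the background sets as a block 4 of the 20 passed, where 320 of all genes did, and 10 passed in the 9 lower background arrays alone, where 566 did. With 1 array left out 0 passed in 12 of 14 fits. Without the first WT array on Western diet 9 passed (499 of all genes), and without the second EKO array on normal diet 1 (148 of all genes).

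Some genes of dividing cells were also among the 67. Mki67, the proliferation marker Ki-67, read 7.72, 7.83 and 7.93 in normal-fed WT, 8.84, 9.29 and 9.31 in Western-fed WT, 7.79, 7.91, 7.94 and 7.84 in normal-fed EKO and 7.92, 7.81, 8.07 and 7.77 in Western-fed EKO. Its lowest WT array on Western diet (8.84) lay above the highest other array (8.07), and its interaction was -1.30 ± 0.16, adjusted p = 0.00242. Spc25, a subunit of the kinetochore's NDC80 complex, read 6.45, 6.21 and 6.35 in normal-fed WT, 7.63, 7.83 and 8.04 in Western-fed WT, 6.21, 6.44, 6.29 and 6.46 in normal-fed EKO and 6.39, 6.28, 6.26 and 6.33 in Western-fed EKO. Spc25 was at background in the other 3 groups, so its rise in WT was at least 2.44-fold and WT exceeded EKO on Western diet at least 2.28-fold, with an interaction of -1.52 ± 0.15, adjusted p = 0.00021. The division genes Gas2l3, Mad2l1 (of the spindle checkpoint), Hmmr and Mastl, the histone chaperone Asf1b, the ribonucleotide reductase subunit Rrm2, the histone gene H2ac15 and the nuclear pore gene Nup210 lay at -1.27 to -0.67. Hmmr and Mastl had all 4 group means at background, and H2ac15 has near-identical copies.

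Of 30 measured mitotic genes 3 passed (Spc25, Mki67 and Hmmr) and 29 lay below 0. At an unadjusted p under 0.05, 23 were lower, against 6.57% of all genes. The list median was -0.54, from 0.60 in WT and 0.02 in EKO. All 25 DNA replication genes lay below 0, against 42.9% of all genes, and 8 were lower at an unadjusted p under 0.05. Their median was -0.29, and Rrm2 alone passed (-1.02 ± 0.21, adjusted p = 0.0497). Of the mitotic genes 8 passed with the background sets as a block (320 of all genes) and 19 in the 9 lower background arrays alone (566 of all genes). Without the dimmest 50% of genes 0 passed. That setting drops Spc25, Mki67 and Hmmr, whose mean levels of 6.66, 8.14 and 5.60 lie below the all-gene median of 8.345. It therefore does not test them. With 1 array left out the count was 20 without the first WT array on Western diet (499 of all genes). It was 5 without the third EKO array on Western diet (83 of all genes) and 2 or 3 otherwise. Rrm2 passed in 1 of the 14 fits that left out 1 array.

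Promoter windows of 4 of these genes are shown because many mitotic genes hold the cell cycle homology region TTTGAA, to which the DREAM and B-MYB complexes bind, and myeloid genes often hold the PU.1 letters GAGGAAG. Each run is the 150 bases before a RefSeq start site (GRCm38.p6), 5′ to 3′ on the gene's strand, with the motif on either strand in capitals. The windows are chr7:135716380-135716529 (minus strand) for Mki67, chr8:83955544-83955693 (plus) for Asf1b, chrX:106143125-106143274 (plus) for Tlr13 and chr3:95499060-95499209 (plus) for Ctsk. These 4 were chosen among genes of lower interaction with a match, after the matches were seen.
Mki67: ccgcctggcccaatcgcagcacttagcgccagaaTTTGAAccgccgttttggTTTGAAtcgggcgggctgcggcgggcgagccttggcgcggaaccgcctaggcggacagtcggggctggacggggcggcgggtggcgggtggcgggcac
Asf1b: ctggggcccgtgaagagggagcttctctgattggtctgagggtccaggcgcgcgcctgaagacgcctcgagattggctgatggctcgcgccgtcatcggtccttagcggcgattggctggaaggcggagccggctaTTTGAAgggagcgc
Tlr13: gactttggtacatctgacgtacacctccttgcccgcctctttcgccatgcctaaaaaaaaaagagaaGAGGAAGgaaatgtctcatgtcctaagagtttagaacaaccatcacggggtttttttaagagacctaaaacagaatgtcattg
Ctsk: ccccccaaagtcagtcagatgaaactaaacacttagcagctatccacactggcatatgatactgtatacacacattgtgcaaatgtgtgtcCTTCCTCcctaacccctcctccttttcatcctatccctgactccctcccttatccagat
Mki67 holds 2 copies of the cell cycle letters and Asf1b 1, close to the start. Tlr13 holds the PU.1 letters on the gene's strand and Ctsk on the other strand.

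Over windows of 300 bases (250 before to 50 after the start), TTTGAA was found in 14.8% of 19176 promoters, in 18 of 69 promoters of the lower genes (26.1%), in 4 of 28 of the higher genes (14.3%) and in 23 of 28 promoters of the mitotic list (82.1%). GAGGAAG was found in 13.1% of all promoters, in 15 of 69 (21.7%) and 3 of 28 (10.7%). The general ETS letters GGAAGT were in 24.8% of all, 29 of 69 (42.0%) and 9 of 28 (32.1%), and an AP-1 site TGANTCA in 6.90% of all, 10 of 69 (14.5%) and 0 of 28. CCAAT was in 37.4% of all, 33 of 69 (47.8%) and 8 of 28 (28.6%), and the loose C/EBP site TTGCNNAA in 9.75% of all, 11 of 69 (15.9%) and 3 of 28 (10.7%). The E-box CACGTG was in 8.24% of all, 4 of 69 (5.80%) and 1 of 28 (3.57%), and TATAAA in 11.5% of all, 9 of 69 (13.04%) and 3 of 28 (10.7%). The sterol response element TCACNCCAC, the kappa B site, the C/EBP palindrome TTGCGCAA, direct repeat 1, the E2F site TTTCCCGC and the interferon response element were in 1.18%, 0.448%, 0.229%, 0.668%, 1.52% and 3.27% of all promoters in that order, and each in at most 2 of 69 and 2 of 28. Both strands were read, GAGGAAG and GGAAGT can overlap, and the 14 motifs were chosen after expression values were seen. The 69 promoters belong to 54 of the 67 genes and the 28 to 24 of the 29, since a gene can have several start sites. Where its windows overlap, as in Tmem176a and Cd180, the same site is counted more than once. The promoters are therefore not independent units. A match describes the letters and is not a binding site.

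Secreted and matrix genes were also among the 67. Saa3, the serum amyloid A form made in mouse fat, read 8.61, 8.19 and 8.96 in normal-fed WT, 10.37, 11.21 and 10.89 in Western-fed WT, 8.67, 8.20, 9.77 and 9.12 in normal-fed EKO and 8.51, 8.98, 8.58 and 8.86 in Western-fed EKO. Its interaction was -2.44 ± 0.43, adjusted p = 0.0203. Timp1, the inhibitor of matrix metalloproteases, had -1.97 ± 0.39, adjusted p = 0.0395, and passed in 2 of the 14 fits that left out 1 array. Lrg1, a secreted leucine-rich glycoprotein of the acute phase, rose by 0.78 in WT and had an estimate of -0.50 in EKO, for an interaction of -1.28 ± 0.20, adjusted p = 0.011. The protease inhibitor Tfpi2, the proteoglycan Ncan, the matrix protein Olfml3 and the mesenchymal transcription factor Prrx1 lay at -1.84 to -1.24. Of 15 acute phase and complement genes 1 passed (Saa3), all 15 lay below 0 and the median was -0.39. Of 30 extracellular matrix genes 1 passed (Timp1), 25 lay below 0 and the median was -0.47. Over all genes 42.9% lay below 0. At an unadjusted p under 0.05, 7 of the 15 and 17 of the 30 were lower, against 6.57% of all genes.

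Tfr2, transferrin receptor 2, which senses iron-loaded transferrin in liver and erythroid cells, shared the smallest adjusted p. It read 7.04, 7.10 and 7.08 in normal-fed WT, 9.09, 9.05 and 9.42 in Western-fed WT, 6.997, 7.21, 6.86 and 6.88 in normal-fed EKO and 7.23, 7.02, 7.01 and 7.21 in Western-fed EKO. The 3 WT arrays on Western diet stood above 7.23, the highest of the others, and the interaction was -1.98 ± 0.15, adjusted p = 4.53e-05. Trdn, triadin of the muscle sarcoplasmic reticulum, read 8.88, 8.65 and 8.75 in normal-fed WT, 10.67, 10.04 and 10.21 in Western-fed WT, 8.67, 8.81, 8.60 and 8.89 in normal-fed EKO and 8.80, 8.73, 8.997 and 8.57 in Western-fed EKO. Trdn had an interaction of -1.52 ± 0.20, adjusted p = 0.0032, while 0 of 12 skeletal muscle genes passed (median 0.04). Cdkl4, a kinase related to cyclin-dependent kinases, read 6.83, 6.31 and 6.39 in normal-fed WT, 9.36, 9.83 and 10.03 in Western-fed WT, 6.30, 6.80, 6.27 and 6.70 in normal-fed EKO and 6.49, 6.59, 7.12 and 6.87 in Western-fed EKO. Cdkl4 was at background in the other 3 groups, so it rose at least 9.02-fold in WT and stood at least 7.52-fold above EKO on Western diet. Its interaction was -2.98 ± 0.28, adjusted p = 0.000197.

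Fam122b read 7.75, 7.75 and 7.95 in normal-fed WT, 9.11, 9.47 and 9.19 in Western-fed WT, 7.68, 7.74, 7.88 and 8.13 in normal-fed EKO and 7.84, 7.71, 7.82 and 7.82 in Western-fed EKO. Its interaction was -1.498 ± 0.16, adjusted p = 0.000664, with no overlap between WT on Western diet and the rest. Otop1, a proton channel, rose by 1.53 in WT against 0.10 in EKO (-1.43 ± 0.20, adjusted p = 0.0053) and was the 1 of 13 brown and beige fat genes that passed. Oxtr, the oxytocin receptor (-2.30 ± 0.46, adjusted p = 0.0432), and Gpr50, an orphan relative of melatonin receptors (-2.28 ± 0.44, adjusted p = 0.0355), passed in 3 and 4 of the 14 fits that left out 1 array. Adcy7, Adh6b, Adssl1, Evl, Fabp7, Il13ra2, Nostrin, Rnf128, Tmem176a and Ugt3a2 completed the lower set at -1.61 to -0.74, and Il13ra2 was at background in all 4 groups. Adh6b was at background in both normal-fed groups, so its WT rise was at least 2.77-fold. It passed in 22 of the 23 alternative settings that tested it, with interactions from -1.22 to -0.49.

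**Figure D2:**
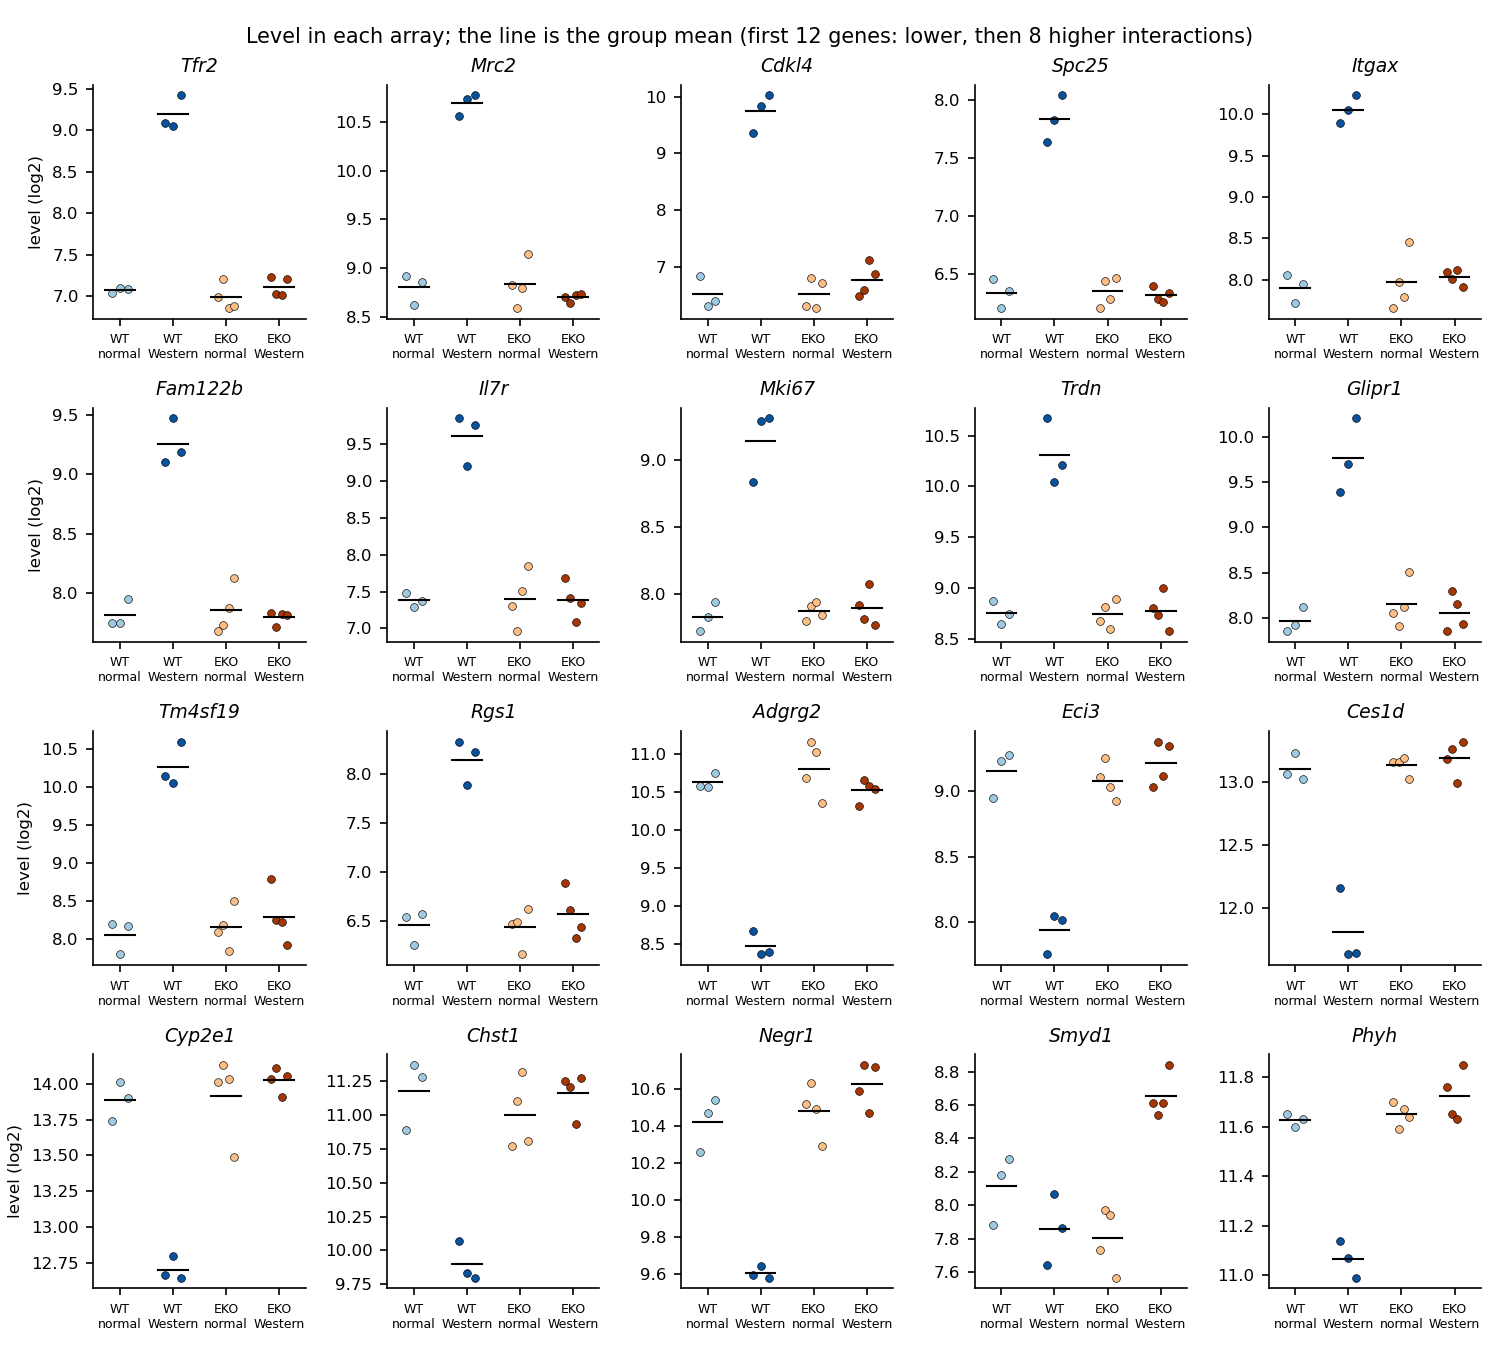
Log2 level on each of the 14 arrays (points, by group) for genes with the smallest p among lower and higher interactions, with a line at each group mean. The WT arrays on Western diet sit apart from the other 11, above them for Itgax and below them for Adgrg2, while both EKO groups lie with WT on normal diet, except for Smyd1, whose Western-fed EKO arrays are the highest.

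The 29 genes with a higher diet effect in EKO included genes of adipocytes and metabolism, and 27 of them fell in WT. Adgrg2, an adhesion G protein-coupled receptor, read 10.58, 10.56 and 10.75 in normal-fed WT, 8.68, 8.37 and 8.40 in Western-fed WT, 10.68, 11.16, 11.02 and 10.36 in normal-fed EKO and 10.31, 10.66, 10.58 and 10.54 in Western-fed EKO. The highest WT array on Western diet (8.68) lay below the lowest other array (10.31), and Adgrg2 had an interaction of 1.87 ± 0.23, adjusted p = 0.00214. Negr1, a cell adhesion molecule of the immunoglobulin superfamily, read 10.26, 10.47 and 10.54 in normal-fed WT, 9.60, 9.64 and 9.58 in Western-fed WT, 10.52, 10.63, 10.49 and 10.29 in normal-fed EKO and 10.59, 10.73, 10.47 and 10.72 in Western-fed EKO. Its interaction was 0.96 ± 0.14, adjusted p = 0.00694. Chst1, a keratan sulfate sulfotransferase, read 10.89, 11.37 and 11.28 in normal-fed WT, 10.07, 9.83 and 9.80 in Western-fed WT, 10.77, 11.10, 11.32 and 10.81 in normal-fed EKO and 11.25, 11.21, 10.93 and 11.27 in Western-fed EKO. Its interaction was 1.45 ± 0.21, adjusted p = 0.00632, and in both genes the WT arrays on Western diet lay below all others.

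Several of the 29 encode enzymes of lipid handling. Ces1d, the carboxylesterase that hydrolyses stored triglyceride, read 13.06, 13.23 and 13.02 in normal-fed WT, 12.16, 11.63 and 11.64 in Western-fed WT, 13.16, 13.16, 13.19 and 13.02 in normal-fed EKO and 13.18, 13.26, 12.99 and 13.32 in Western-fed EKO. It fell by 1.29 in WT against an estimate of 0.05 in EKO, for an interaction of 1.34 ± 0.18, adjusted p = 0.00322. The related Ces1f gave 2.17 ± 0.39, adjusted p = 0.0256, and the close sequence of the family means that probes may read more than 1 member. Eci3, an enoyl-CoA isomerase of peroxisomal beta-oxidation, read 8.95, 9.22 and 9.27 in normal-fed WT, 7.76, 8.05 and 8.02 in Western-fed WT, 9.11, 9.25, 9.03 and 8.92 in normal-fed EKO and 9.03, 9.37, 9.11 and 9.34 in Western-fed EKO. Its interaction was 1.34 ± 0.17, adjusted p = 0.00242. Phyh, the peroxisomal enzyme of phytanic acid breakdown, read 11.65, 11.60 and 11.63 in normal-fed WT, 11.14, 11.07 and 10.99 in Western-fed WT, 11.70, 11.59, 11.67 and 11.64 in normal-fed EKO and 11.76, 11.65, 11.63 and 11.85 in Western-fed EKO. The interaction of Phyh was 0.63 ± 0.11, adjusted p = 0.0176.

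Cyp2e1, the cytochrome P450 that oxidises ethanol, acetone and fatty acids, read 13.74, 14.01 and 13.90 in normal-fed WT, 12.67, 12.80 and 12.65 in Western-fed WT, 14.01, 14.13, 14.03 and 13.49 in normal-fed EKO and 14.03, 14.11, 13.91 and 14.05 in Western-fed EKO. Its interaction was 1.28 ± 0.18, adjusted p = 0.00572, and the WT arrays on Western diet lay below all others. Pck1, the enzyme of glyceroneogenesis in fat, stood at 13.09 ± 0.12 and 11.71 ± 0.44 in WT (SD, n = 3 each) and at 12.91 ± 0.39 and 13.19 ± 0.13 in EKO (SD, n = 4 each). Its interaction was 1.66 ± 0.29, adjusted p = 0.0178. Agt, angiotensinogen, fell by 1.84 in WT and had an estimate of -0.48 in EKO, for an interaction of 1.36 ± 0.26, adjusted p = 0.0321. Asns, asparagine synthetase, a target of the amino acid response, had 0.82 ± 0.14, adjusted p = 0.0178. The glutathione transferases Gsta4 and Gstt1 lay at 0.89 to 1.31 and were the 2 of 19 antioxidant genes that passed.

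The rest of the set were Adig (adipogenin), Sqor (sulfide oxidation), Nat8l (synthesis of N-acetylaspartate), the kinase Sik2, the sodium pump subunit Atp1b1, the bicarbonate cotransporter Slc4a4, Acad11, B3galt2, Dennd2d, Dock11, Dtna, Pcsk6, Peli3 and Tab3, at 0.53 to 1.62, and 1 predicted gene. Smyd1, a methyltransferase of striated muscle, differed from the pattern and read 7.88, 8.18 and 8.28 in normal-fed WT, 7.64, 8.07 and 7.87 in Western-fed WT, 7.73, 7.97, 7.94 and 7.57 in normal-fed EKO and 8.62, 8.54, 8.61 and 8.84 in Western-fed EKO. Its diet estimate was -0.26 in WT and 0.85 in EKO, for an interaction of 1.10 ± 0.19, adjusted p = 0.0168. Smyd1 and Acad11 (-0.31 in WT and 0.40 in EKO) were the 2 of the 96 whose WT diet effect did not itself pass.

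Mesothelial genes, of the cell layer that covers the fat pad, had 0 of 15 members past the threshold, yet all 15 lay above 0 and 13 were higher at an unadjusted p under 0.05, against 4.27% of all genes. Their median interaction was 0.80, from -0.87 in WT and -0.0064 in EKO. EKO minus WT had a median of -0.40 on normal diet and 0.50 on Western diet, so EKO also started lower. The mean level of the list was 10.15 and 9.32 in normal-fed and Western-fed WT, and 9.79 in both EKO groups. Upk3b, a uroplakin of mesothelium, read 11.75, 11.63 and 12.09 in normal-fed WT, 10.60, 10.74 and 10.61 in Western-fed WT, 11.34, 10.93, 11.72 and 11.72 in normal-fed EKO and 11.56, 11.28, 11.20 and 11.55 in Western-fed EKO. The WT arrays on Western diet lay below all others, and the interaction was 1.15 ± 0.25, adjusted p = 0.0532. Krt19, a keratin, had 1.13 ± 0.25, adjusted p = 0.0568. With the background sets as a block, where 320 of all genes passed, 5 of the 15 did. With 1 array left out the count was 4 without the first WT array on Western diet (499 of all genes). It was 2 without the second EKO array on normal diet (148 of all genes) and at most 1 in the other 12 fits.

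Adipocyte identity genes had 0 of 20 past the threshold, 16 above 0 and a median of 0.14, with Nrg4 (0.73 ± 0.18, adjusted p = 0.0918) and Acvr1c (0.88 ± 0.23, adjusted p = 0.118) of smallest p. Over all genes 42.9% lay below 0. At an unadjusted p under 0.05, 7 of the 20 adipocyte genes were higher and 1 was lower. Branched-chain amino acid breakdown had 0 of 15 past the threshold and 13 above 0, with a median of 0.46. Of the 15, 8 were higher at an unadjusted p under 0.05, against 4.27% of all genes. Bckdhb, a subunit of the committed enzyme of that pathway, had 0.64 ± 0.14, adjusted p = 0.0532. In insulin signalling 1 of 16 passed (Pck1), median 0.10, and in fatty acid and triglyceride synthesis 1 of 23 (Pck1), median -0.05. Of 17 unfolded protein response genes 1 passed (Asns), median -0.17. No member passed in fatty acid oxidation (19 genes, median 0.23), the respiratory chain (20 genes, 19 above 0, median 0.15) or the endothelial (17), smooth muscle and pericyte (13), adipocyte progenitor (15), epididymis and testis (14), immediate early and heat shock (15), circadian (14) and red cell (2) lists, with medians between 0.05 and 0.30. Of the 20 respiratory chain genes 1 was higher at an unadjusted p under 0.05, against 4.27% of all genes. The immediate early median was -0.49 without the second and 0.42 without the first WT array on normal diet, and that of fatty acid oxidation was 0.07 without the second. Lep, leptin, had an interaction of -1.08 ± 0.36, adjusted p = 0.237.

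**Figure D3:**
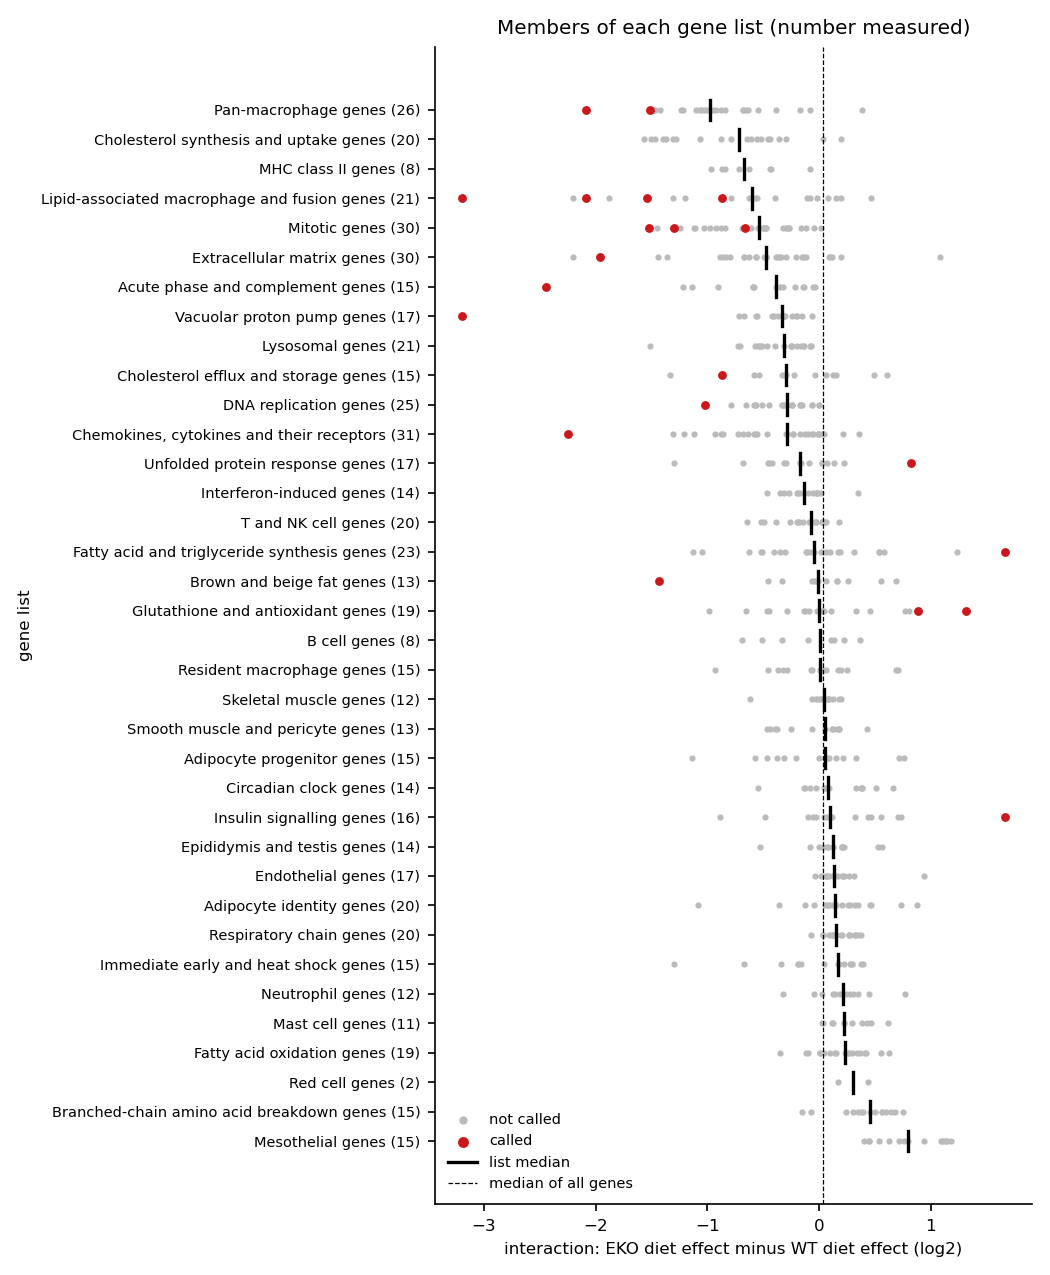
Interaction estimate (log2, horizontal axis) of every measured member (points) of each gene list (rows), with the list median marked. Points left of 0 are genes whose diet effect was lower in EKO; the pan-macrophage list has a median of -0.98 and the mesothelial list one of 0.80, beside 0.03 over all genes.

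For comparison, the average of the diet effects of both genotypes passed for 687 genes (3.45%), 334 higher (1.68%) and 353 lower (1.77%). Of these, 52 had an unadjusted interaction p above 0.5, 10 of them higher and 42 lower. The falls of largest size were in Cyp2f2, Hsd11b1, Gria3, Dusp1, Mlxipl and Trhde, and the rises in Cox8b, Ffar2, Adtrp, Aldh3b2, Trarg1 and Ppfibp2. Cyp2f2, a cytochrome P450, read 10.34, 12.48 and 11.21 in normal-fed WT, 9.97, 8.63 and 8.73 in Western-fed WT, 10.71, 13.07, 11.72 and 8.89 in normal-fed EKO and 8.17, 8.67, 8.70 and 8.48 in Western-fed EKO. The diets did not overlap within either genotype, and the normal-fed EKO arrays spread widest. The average effect of Cyp2f2 was -2.41 ± 0.51, adjusted p = 0.0185, while its interaction had a 95% interval of -2.56 to 1.83. Hsd11b1, which regenerates active glucocorticoid in fat, fell by 0.88 on average (adjusted p = 0.0096), with -0.95 in WT, -0.81 in EKO and an interaction interval of -0.57 to 0.85. Mlxipl, the carbohydrate-responsive factor ChREBP, fell by 0.75 (adjusted p = 0.00639; interval -0.46 to 0.67).

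Cox8b, a cytochrome c oxidase subunit of brown fat and muscle, rose by 0.94 ± 0.18 on average, adjusted p = 0.0111, with 0.86 in WT and 1.02 in EKO (interaction interval -0.62 to 0.94). Ffar2, a receptor for short-chain fatty acids, rose by 0.50 (adjusted p = 0.0227; interval -0.52 to 0.43). Trarg1, which regulates GLUT4 trafficking, rose by 0.37 (adjusted p = 0.0342; interval -0.44 to 0.31). An interaction p above 0.5 chose these genes and does not show that the genotypes respond alike. The interval of the interaction is the range these arrays allow.

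**Figure D4:**
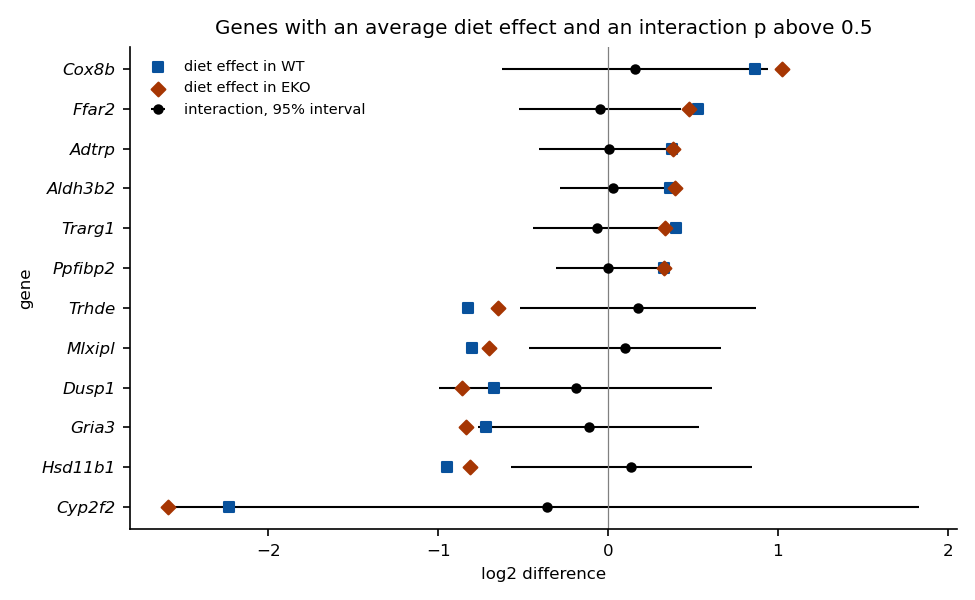
Diet effect (log2, horizontal axis) in WT and in EKO for the 12 genes with the largest average diet effects among those with an interaction p above 0.5 (rows), and the interaction with its 95% interval as a bar. The genotypes' estimates lie on the same side of 0 in each of the 12 genes, which the choice of genes partly fixes.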

How the data were processed

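Epididymal fat pad RNA was hybridised to 14 Affymetrix whole-transcript arrays. The authors' deposited values are log2 RMA summaries, 1 for each array of every probe set; RMA is named in the submitters' processing notes, with no version or settings. RMA commonly includes quantile normalization, which would take out a shift that most genes share; the deposited arrays still had medians of 7.92 to 8.10 and SDs of 1.75 to 1.89. Of 34760 rows, 21640 have 1 symbol in the platform annotation, 1321 several and 11799 none. For 954 genes with several sets the set with the highest mean was kept. Of the named rows 21553 matched GRCm38.p6 by Entrez ID.

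A mean per group was fitted to the 14 arrays (limma 3.58.1, R 4.3.3, lmFit and eBayes, no covariate), and the threshold was a Benjamini-Hochberg adjusted p under 0.05. The script was tested on simulated data. Named genes were every gene past the interaction threshold except predicted ones, list members that passed (otherwise up to 2 of smallest p), the 6 largest rises and falls with an interaction p above 0.5, Apoe, Lep and cell type markers. Array values are printed for the 12 lower and 8 higher interactions of smallest p, and for a few further genes chosen after their values were seen. The genes, lists and rules were chosen with earlier results of these data known. Arrays of a group correlated at 0.976 to 0.995, and their number limits the precision. Promoters come from RefSeq (GRCm38.p6), and figures were drawn with matplotlib 3.10.9.

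The main fit did not pair arrays by replicate number. Of 19 same-numbered pairs from different groups 12 had deviations correlated above 0.1 (range -0.59 to 0.64, median 0.20). Of 54 differently numbered pairs 23 did (range -0.61 to 0.63, median -0.095). With the replicate number as a block 159 genes passed the interaction test. Whether equal numbers mark shared handling was not tested.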

Additional observations from a re-analysis of the deposited data

Results flagged for a closer look

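The diet effect differed between the genotypes in 96 genes by the interaction test itself, as described above. The other results listed here are single arrays that stood apart within a group of 4, with a gap to the nearest array over 0.829 of the group's range. Of 306 groups tested 24 (7.84%) met this rule, where chance gives about 1 in 20 for 1 group. The 306 are the EKO groups of chosen genes, read on the same arrays. Genes that vary together on 1 array are flagged together, so the 7.84% cannot be read as an excess over that rate.

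The fourth EKO array on normal diet was highest in 6 of them, with Gas2l3 at 7.92, Adam8 at 8.63, Slamf7 at 8.65, Adssl1 at 8.13, Atp6v0d2 at 9.02 and Zfp423 at 9.99. It was the highest of its group in 50 of the 67 genes with a lower diet effect in EKO, and its pan-macrophage level was 9.68 (the other 3 arrays gave 8.81 to 9.23). Without that array 73 genes passed. The WT groups, of 3 arrays each, did not enter this rule. Among them the third WT array on Western diet was the highest of its group in 56 of the 67 genes. Its pan-macrophage level was 10.40, where the first and the second array of that group gave 9.93 and 10.14. No share over all genes was computed for the counts of 50 and 56. By the rule, the second EKO array on Western diet was also highest in 6, with Tlr13 at 9.01, Blnk at 8.51, Tmem176a at 10.24, Bin2 at 7.13, Lipa at 11.21 and Hsd11b1 at 10.64. The first was highest for Slc15a3 at 8.65 and Havcr2 at 7.21.

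The third EKO array on Western diet was lowest for Chst1 at 10.93, Adcy7 at 9.15 and Arhgap25 at 8.41 and highest for Rnf128 at 7.61. The fourth was lowest for Aim2 at 7.47 and Cd3e at 8.23. On normal diet the second EKO array was highest for Gpr50 at 7.05 and lowest for Thbd at 10.84, the first was lowest for Mrgprb1 at 6.71, and the third was highest for Acvr1c at 11.97. The part of array quality or of cell content in these values was not tested.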

How the results depend on the processing

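All 96 genes kept their direction in every alternative that tested them (0 of 2358 gene and setting pairs reversed), and 20 passed in all 25 gene-level settings. The settings share arrays with the test that chose the 96, so a kept direction is in part fixed by that choice. A gene dropped by a setting without the dimmest genes could not be among the 20. Tfr2, Cdkl4, Il7r, Mki67, Fam122b, Gas2l3 and Adssl1 passed in all 24 settings that tested them. Spc25, Rgs1, Stap1 and Ubd passed in all 23 that tested them. The interaction count of 96 became 285 after quantile normalization, 2338 with array weights, 56 when all 34760 rows were tested, 320 with the background set as a block, 342 with the background level as a covariate and 566 in the 9 lower background arrays alone. With the replicate block it was 159. Leaving out 1 array gave 37 to 499. The share with a lower effect in EKO, 69.8%, was 52.3% with the background covariate, 58.8% with its block, 57.8% with array weights and 57.1% without the dimmest 50% of genes, and ran from 54.7% (without WT array 1 on normal diet) to 86.7% (without array 3 of that group) with 1 array left out. Of the 36 list medians 25 kept 1 sign in all settings. The other 11 were those of resident macrophage, T and NK, B cell, lipogenesis, brown and beige, antioxidant, smooth muscle, progenitor, skeletal muscle, immediate early and circadian genes. The average diet count of 687 became 1087, 2839, 1319 and 1275 under quantile normalization, array weights, block and covariate, and 335 to 972 with 1 array left out. The WT diet count of 1094 became 1735, 5224, 2007 and 2076 in the same order, 2152 in the 9 arrays, and 415 to 1514 with 1 array left out. The EKO diet count of 0 became 8 with array weights, 1 with the covariate, 1 with the replicate block and 0 to 4 with 1 array left out. Over all pairs of a named gene and a setting, 3139 kept their side of the threshold, 517 lost it and 110 gained it. The epididymis and testis list gave no median without the dimmest 50% of genes, since no member was left. The cause of these changes was not tested, beyond the fewer arrays or the other rows that a setting holds by construction. Array numbers are few, and genes at background give only bounds.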

Other observations

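When all 34760 rows of the table were tested, 56 passed the interaction. Of these 53 were among the 21640 rows with 1 symbol, 3 among the 11799 rows without a symbol and 0 among the 1321 with several. On normal diet the 67 genes with a lower diet effect in EKO stood at a median of 0.04 in EKO minus WT, with 44 of the 67 above 0 and a range from -0.27 to 0.44. Of all 19937 genes 9325 lay above 0, with a median of -0.0064. The interaction is the genotype difference on Western diet minus that on normal diet. Choosing genes by a negative interaction therefore raises the normal-diet difference in part, and the 44 cannot be read as a result of its own. Sfrp1, a secreted inhibitor of Wnt signalling, had an interaction of -1.14 ± 0.25 (adjusted p = 0.0633), with a diet estimate of 0.63 in WT and -0.51 in EKO. Atf3, a stress-induced transcription factor, had -1.30 ± 0.31 (adjusted p = 0.0829).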
